A study of Homo sapiens with 24 samples.

Results

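The HOX cluster genes were taken as every gene of the deposited tables whose symbol is HOXA, HOXB, HOXC or HOXD followed by a paralogue number, which gave 39 of 26475 genes. They comprised 11 HOXA genes on chromosome 7, 10 HOXB genes on chromosome 17 (48528526 to 48728750), 9 HOXC genes on chromosome 12 (53938831 to 54056030) and 9 HOXD genes on chromosome 2 (176087487 to 176190907), with chromosomes and positions from the RefSeq annotation of GRCh38.p14. RNA-seq was done on 24 libraries of 2 clear cell renal cell carcinoma (ccRCC) lines, 786-M1A and OS-LM1, which are metastatic sublines, from 786-O and from OS-RC2 cells respectively, and carry mutant VHL. Each line carried either sgNTC18, a non-targeting guide RNA, or 1 of 2 RNA interference constructs against PAX8 (shPAX8-1 and shPAX8-2), with 4 replicates in each of the 6 groups. The control is therefore a different kind of construct from the depleting ones, so that the effect of PAX8 depletion and that of the construct or experiment cannot be told apart. Nothing says that replicates came from separate cultures, and the p-values measure only the spread between these libraries.

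HOX proteins are homeodomain transcription factors that give cells along the body axis their positional identity. Their genes lie in clusters in the order of their paralogue numbers, and low numbers are used towards the head and high numbers towards the tail. Adult and cultured cells usually keep much of the combination set in the embryo. In the kidney, which forms from intermediate mesoderm, the Hox11 paralogues are needed for the metanephros to form, and PAX8 is the lineage factor of the renal epithelium. HOX proteins bind DNA together with TALE-class partners of the PBX and MEIS families, and Polycomb proteins hold silent parts of the clusters shut.

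Expected counts summed to between 11634419 and 52059375 a library, so that 3 counts in 1 library corresponded to between 0.0626 and 0.249 CPM, that is, counts scaled to a common library size by the TMM method. Intervals on such counts cover counting error only. The 786-M1A shPAX8-1 libraries fell into 2 pairs, replicates 1 and 2 and replicates 3 and 4, with a chi-square per gene of 15.5 and 3.92 within the pairs and 49.5 to 86.2 between them. PAX8 was 341 ± 44.7 CPM (SD, n = 4) with sgNTC18, 18.7 ± 4.31 with shPAX8-1 and 42.4 ± 2.36 with shPAX8-2 in 786-M1A. In OS-LM1, PAX8 was 260 ± 14.5, 78.2 ± 13.1 and 79.2 ± 13.7 CPM, and PAX8 was lower in all shPAX8 libraries than in the sgNTC18 libraries of the same line. Of 14 renal and ccRCC markers, 10 to 13 had a mean of at least 1 CPM in each group. With shPAX8-1 and shPAX8-2, 9 and 8 of the 11 tested in 786-M1A fell and 1 rose, and 7 of 13 fell and 3 rose with each in OS-LM1, with PAX8 itself among those that fell. In these 4 comparisons, 30.9 to 35.8% of all genes fell and 31.5 to 36.1% rose. The hypoxia gene CA9 had a mean of at most 0.0405 CPM in every 786-M1A group and the renal homeobox gene EMX2 at most 0.0254 CPM anywhere. Of 5 leukocyte markers, PTPRC and CD3E had means of at most 0.241 CPM, CD68 was 80.8 to 350 CPM and CD14 up to 3.27 CPM. CD68 and CD14, the leukocyte markers that could be tested, both rose with each construct in OS-LM1, and the summed level of the list was 76.9 to 90.7 CPM with sgNTC18, 251 to 361 CPM with shPAX8-1 and 191 to 264 CPM with shPAX8-2. In 786-M1A it was 185 to 216, 201 to 307 and 308 to 400.0 CPM. All 4 endothelial markers had means under 1 CPM. The summed level of 7 fibroblast markers ranged from 15.0 to 20.2 CPM in the OS-LM1 sgNTC18 libraries, from 107 to 126 CPM in the OS-LM1 shPAX8-1 libraries and from 105 to 211 CPM in the OS-LM1 shPAX8-2 libraries. COL1A1 supplied most of the difference (16.2 CPM with sgNTC18 against 102 and 166), and PDGFRB supplied most of the 203 to 891 CPM of the 786-M1A libraries. COL1A2, DCN and PDGFRA had means of at most 0.711 CPM. Of 6 fibroblast markers tested in OS-LM1, 6 rose with shPAX8-1 and 5 with shPAX8-2, and 0 fell. Among all genes, 35.6% and 34.3% rose there. Of 3 tested in 786-M1A, 2 rose with each construct, and 1 fell with shPAX8-1 and 0 with shPAX8-2. The part of these markers in the HOX results was not tested.

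The promoter windows of 8 HOX genes are shown, chosen from the genes with results below. HOXD8, HOXD10 and HOXD11 rose together in OS-LM1 with shPAX8. HOXA7 and HOXD1 separated the lines, HOXA2 fell with shPAX8 in both lines, and HOXC4 and HOXC5, which share 1 window, fell in 786-M1A. RefSeq promoters of GRCh38.p14 were matched for 20 of the 39 genes. HOXB8, HOXB9, HOXC10 and HOXC11, which also have results below, were not among them. Each sequence below is the 250 bases before the annotated start, read 5′ to 3′ on the gene's strand. Capitals mark CG dinucleotides, the sites of DNA methylation. The windows are HOXD8 (chr2:176129455-176129704, plus strand), HOXD10 (chr2:176116528-176116777, plus strand), HOXD11 (chr2:176107030-176107279, plus strand), HOXA7 (chr7:27156676-27156925, minus strand), HOXD1 (chr2:176188418-176188667, plus strand), HOXA2 (chr7:27102684-27102933, minus strand) and HOXC4 with HOXC5 (chr12:54016638-54016887, plus strand).
HOXD8: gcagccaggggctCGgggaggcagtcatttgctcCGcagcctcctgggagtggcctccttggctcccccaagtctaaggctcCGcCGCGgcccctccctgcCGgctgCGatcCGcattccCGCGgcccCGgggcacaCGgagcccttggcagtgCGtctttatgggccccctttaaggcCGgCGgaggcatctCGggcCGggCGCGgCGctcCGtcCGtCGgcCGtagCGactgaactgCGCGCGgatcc
HOXD10: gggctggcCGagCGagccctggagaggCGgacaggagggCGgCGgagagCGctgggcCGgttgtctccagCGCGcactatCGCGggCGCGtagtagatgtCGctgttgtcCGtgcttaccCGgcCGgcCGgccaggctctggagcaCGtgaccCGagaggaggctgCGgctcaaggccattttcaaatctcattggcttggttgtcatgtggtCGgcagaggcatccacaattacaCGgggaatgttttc
HOXD11: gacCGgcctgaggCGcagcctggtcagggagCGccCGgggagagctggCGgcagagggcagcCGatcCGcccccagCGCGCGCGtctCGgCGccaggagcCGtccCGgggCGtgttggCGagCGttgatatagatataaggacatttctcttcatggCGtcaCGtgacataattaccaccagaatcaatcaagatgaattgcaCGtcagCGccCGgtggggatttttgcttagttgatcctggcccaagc
HOXA7: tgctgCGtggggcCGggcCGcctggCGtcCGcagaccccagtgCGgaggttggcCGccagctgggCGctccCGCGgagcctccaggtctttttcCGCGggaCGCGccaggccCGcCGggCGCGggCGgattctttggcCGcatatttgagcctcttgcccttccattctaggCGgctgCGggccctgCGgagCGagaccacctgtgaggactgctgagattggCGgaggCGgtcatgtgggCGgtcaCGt
HOXD1: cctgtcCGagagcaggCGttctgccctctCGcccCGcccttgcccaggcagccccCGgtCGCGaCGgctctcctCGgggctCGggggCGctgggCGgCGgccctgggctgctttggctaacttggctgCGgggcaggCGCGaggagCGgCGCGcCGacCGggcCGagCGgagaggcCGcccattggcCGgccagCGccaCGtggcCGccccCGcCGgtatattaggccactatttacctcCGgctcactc
HOXA2: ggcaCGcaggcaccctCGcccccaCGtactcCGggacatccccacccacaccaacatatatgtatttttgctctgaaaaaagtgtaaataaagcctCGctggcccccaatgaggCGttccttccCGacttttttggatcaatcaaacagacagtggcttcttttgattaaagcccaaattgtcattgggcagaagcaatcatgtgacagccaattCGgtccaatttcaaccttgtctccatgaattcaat
HOXC4: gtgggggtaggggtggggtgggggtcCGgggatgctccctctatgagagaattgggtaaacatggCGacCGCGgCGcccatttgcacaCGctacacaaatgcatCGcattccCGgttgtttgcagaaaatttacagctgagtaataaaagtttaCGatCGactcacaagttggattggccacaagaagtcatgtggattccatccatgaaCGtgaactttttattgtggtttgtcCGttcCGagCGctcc
HOXD8 held 28 CG dinucleotides, HOXD10 and HOXD11 23 each, HOXA7 28, HOXD1 31, HOXC4 with HOXC5 14 and HOXA2 8. Among windows not printed, HOXA11, which rose in OS-LM1, held 11. HOXD3, which rose in 786-M1A, held 21, and HOXA4, which fell in 786-M1A, held 26. The printed windows are therefore no comparison of genes that rose with genes that fell. The 26 distinct HOX windows had a median of 19.5 CG dinucleotides and ranged from 0 to 40, and all 34943 promoter windows of the same length had a median of 11. HOXA3 alone supplied several of the 26, among them the window with 0. HOXB was represented only by HOXB1 and HOXC only by the shared window of HOXC4 and HOXC5. The median and the motif shares below are weighted accordingly. On either strand, TGATTNAT, a sequence bound by PBX and HOX proteins together, was in the HOXA2 and HOXD11 windows, 2 of 26 (7.69%), and in 2.49% of all windows. GTCANGC, part of the core that PAX proteins bind, was in 1 of the 26 (3.85%, that of HOXB1) and in 8.97% of all, and TATAAA, the core of a TATA box, was in 5 (19.2%) and in 10.8%. None of the 7 windows printed held GTCANGC or TATAAA.

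HOX transcripts came from all 4 clusters in both lines. A mean of at least 1 CPM in every one of the 6 groups was found for 27 of the 39 genes, and 7 were under 1 CPM in all 6 (HOXA6, HOXB1, HOXB13, HOXC12, HOXC13, HOXD12 and HOXD13). The other 5 (HOXA7, HOXA13, HOXC5, HOXC11 and HOXD1) passed in some groups only. The genes above 1 CPM in every group extended tailward to HOXA11, HOXB9, HOXC10 and HOXD11, with gaps at HOXA6, HOXA7 and HOXC5. Of the 6 genes of groups 12 and 13, the tailward end of the clusters, 5 were under 1 CPM in all groups, as was HOXB1 at the headward end of HOXB. HOXB1 and HOXC12 had no read in any of the 24 libraries, which allows up to 0.00523 CPM over all libraries together. HOXB13 had 6 counts, HOXD12 5, HOXD13 16 and HOXC13 28 in all. HOXA13 was the exception among groups 12 and 13, at 1.05 to 1.99 CPM (median 1.55) in the 786-M1A libraries and 0.384 to 1.53 CPM (median 1.07) in OS-LM1. HOXA6, between HOXA5 and HOXA7, reached at most 0.746 CPM.

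**Figure D1:**
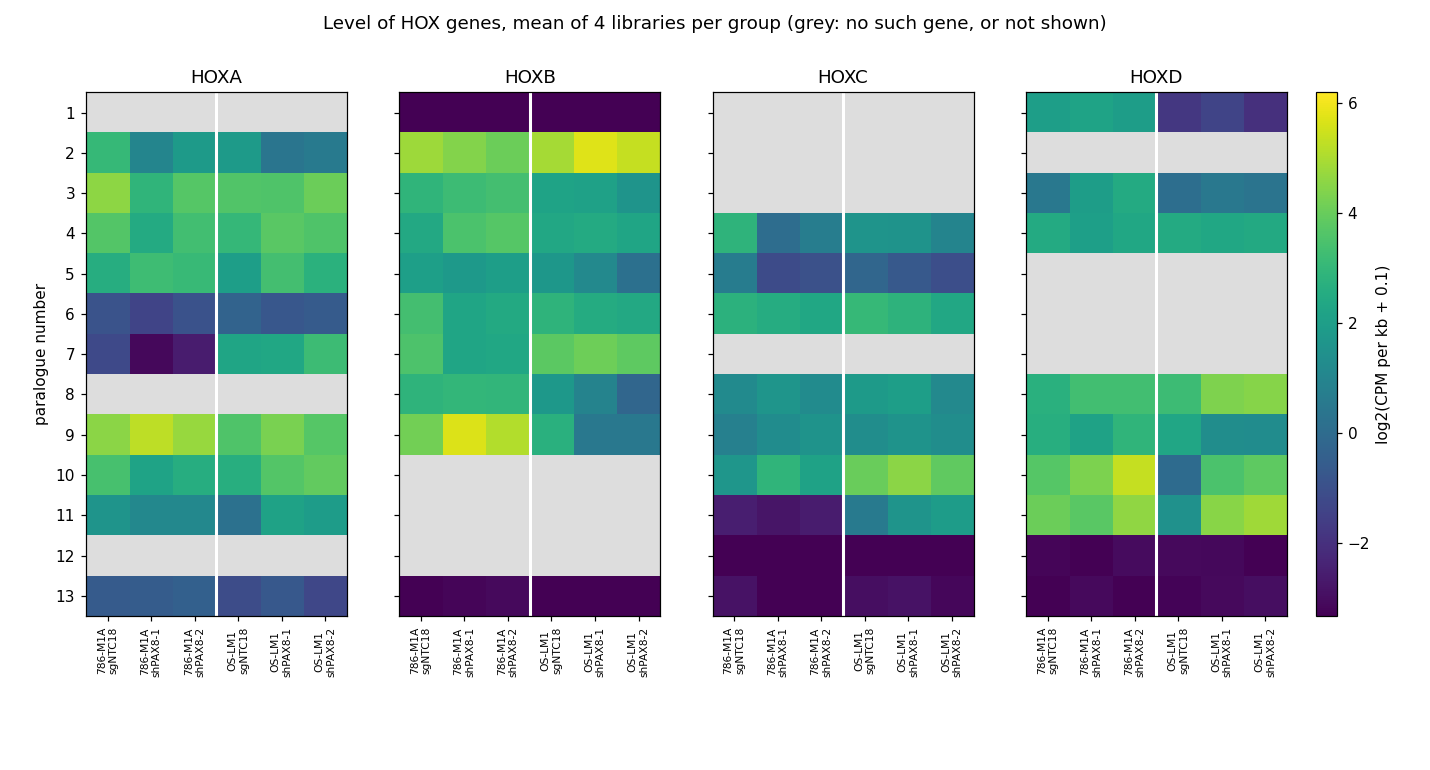
Level of HOX genes on the log2(CPM per kb + 0.1) scale, as the mean of 4 libraries in each of 6 groups, with 1 panel a cluster and paralogue numbers 1 to 13 from top to bottom. Apart from HOXA13, groups 12 and 13 are at the bottom of the scale in every column. HOXA7 and HOXC11 are low in the 786-M1A columns and HOXD1 is low in the OS-LM1 columns. Grey marks numbers that a cluster does not have or that are not shown.

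Levels of different genes were compared only per length, in CPM per kb of transcript. The order of the members differed between constructs, and it is given by group (mean ± SD, n = 4). In 786-M1A with sgNTC18, HOXB2, a hindbrain paralogue, was highest at 27.5 ± 0.983, followed by HOXA3 at 23.7 ± 1.78, HOXA9 at 23.5 ± 1.87, HOXB9 at 17.9 ± 0.852 and HOXD11 at 16.5 ± 1.03. The libraries of HOXA3 and HOXA9 overlapped, and so did those of HOXB9 and HOXD11. With shPAX8-1, HOXB9, a trunk to lumbar paralogue, was highest at 52 ± 8.48, above HOXA9 at 38.3 ± 3.86 without overlap, and HOXB2 (21.3 ± 1.95) and HOXD10 (19.9 ± 3.7) came next and overlapped. With shPAX8-2, HOXD10 at 41 ± 7.33 and HOXB9 at 34.2 ± 3.09 were the highest and their ranges overlapped. HOXB9 was therefore under HOXB2 in the sgNTC18 libraries and above it in the shPAX8 libraries. In OS-LM1, HOXB2 was highest with every construct, at 30.0 ± 2.15 with sgNTC18, 53 ± 9.47 with shPAX8-1 and 40.8 ± 7.48 with shPAX8-2. Behind it with sgNTC18 were HOXC10 (16.4 ± 0.689), HOXB7 (14 ± 0.893), HOXA3 (12 ± 1.53) and HOXA9 (11.7 ± 0.536), while HOXD8 was at 9.24 ± 0.739 and HOXD11 at 2.73 ± 0.505. The libraries of HOXB7 and HOXA3 overlapped there, and so did those of HOXA3 and HOXA9. With shPAX8-1, HOXC10 (23.1 ± 2.12), HOXD11 (22.5 ± 2.6) and HOXD8 (20.3 ± 1.39) came next, and with shPAX8-2 HOXD11 (28.3 ± 4.96) and HOXD8 (22.1 ± 2.92), each overlapping with the next of those named. With shPAX8-2 the ranges of HOXB2 and HOXD11 overlapped as well, although HOXB2 was the higher in each of the 4 libraries. Within HOXD, the highest member with sgNTC18 was HOXD11 in 786-M1A and HOXD8 in OS-LM1, and with each shPAX8 construct it was HOXD10 in 786-M1A and HOXD11 in OS-LM1. Within HOXC it was HOXC10 in every OS-LM1 group, whereas in 786-M1A HOXC4 (7.2 ± 1.03) and HOXC6 (6.86 ± 0.465) overlapped with sgNTC18 and HOXC6 and HOXC10 overlapped with each shPAX8 construct.

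By cluster, the summed level (CPM per kb, mean ± SD, n = 4) in the sgNTC18 libraries was 95.8 ± 5.16 in 786-M1A and 57.2 ± 3.4 in OS-LM1 for HOXA, 90.9 ± 5.87 and 73.7 ± 2.97 for HOXB, 22.7 ± 1.6 and 35.8 ± 1.16 for HOXC and 52.6 ± 3.56 and 24.6 ± 0.797 for HOXD. HOXC was thus the cluster with the higher sum in OS-LM1. As a share, HOXC supplied 8.46 to 9.06% of the summed HOX level (CPM per kb over all 39 genes) in the 4 libraries of 786-M1A and 18.2 to 19.4% in the 4 of OS-LM1, and HOXD supplied 19.8 to 20.4% and 12.6 to 13.4%. By paralogue number, groups 9 to 13 supplied 36.2 to 36.8% in 786-M1A and 28.1 to 29.4% in OS-LM1, and groups 4 to 8 supplied 32.9 to 33.5% and 41.6 to 42.9%. With shPAX8 the share of groups 9 to 13 was higher in both lines, at 52.0 to 56.4% (shPAX8-1) and 49.3 to 54.2% (shPAX8-2) in 786-M1A and at 34.1 to 38.1% and 36.5 to 39.3% in OS-LM1. None of these ranges overlapped that of the sgNTC18 libraries of the same line. Per kb, the members of groups 9 to 13 whose mean level exceeded that with sgNTC18 by most were HOXB9 (shPAX8-1) and HOXD10 (shPAX8-2) in 786-M1A and HOXD11 (both constructs) in OS-LM1. The share of HOXD rose from 12.6 to 13.4% in OS-LM1 with sgNTC18 to 21.0 to 23.0% with shPAX8-1 and 27.6 to 28.6% with shPAX8-2. These sums are descriptions of the list and carry no test.

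**Figure D2:**
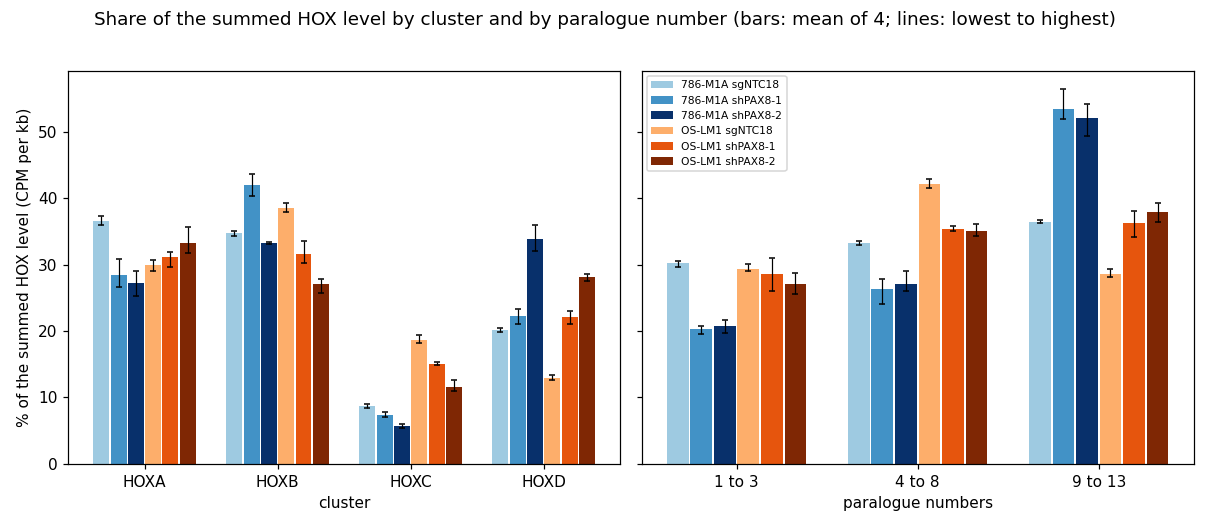
Share of the summed HOX level (CPM per kb) supplied by each cluster, left, and by paralogue groups 1 to 3, 4 to 8 and 9 to 13, right. Bars are means of 4 libraries and lines run from the lowest to the highest library. The share of groups 9 to 13 is above that with sgNTC18 in every shPAX8 group of the same line.

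Between the lines, 33 of the 39 genes passed the filter on low counts and could be tested, the other 6 being HOXB1, HOXB13, HOXC12, HOXC13, HOXD12 and HOXD13. Averaged over the 3 constructs, 10 were higher and 14 lower in OS-LM1 (edgeR quasi-likelihood test, Benjamini-Hochberg adjusted p under 0.05), where 41.7% of 15665 genes tested were higher and 41.3% lower. The median difference of the HOX genes was 0.03 on the log2 scale and that of all genes -0.01. With sgNTC18 alone 6 were higher and 18 lower (background 32.0% and 31.0%), with shPAX8-1 14 and 11 (38.7% and 37.7%) and with shPAX8-2 10 and 12 (38.7% and 38.2%). The share of HOX genes called was 72.7% over the mean of constructs, where 83.1% of all genes were called, 72.7% with sgNTC18 (63.0% of all), 75.8% with shPAX8-1 (76.4%) and 66.7% with shPAX8-2 (76.9%), and most genes of any kind differed between these lines. HOX transcripts were richer in GC than others (median 54.3% against 47.9%), and the difference between the lines fell with GC content over all genes (Spearman's rho = -0.227 for the mean of constructs). After removal of the GC trend within each library, 15 were higher and 13 lower over the mean of constructs and 12 and 17 with sgNTC18.

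The largest differences in favour of OS-LM1 were in HOXA7, HOXC11 and HOXC10. HOXA7 and HOXC11 did not pass the count filter in the 786-M1A libraries alone. They entered this test only through OS-LM1, where they are high, so their adjusted p-values are no independent evidence of a difference between the lines. HOXA7, a trunk paralogue, was at 0 to 0.992 CPM (median 0.167) over the 12 libraries of 786-M1A and at 7.43 to 21.9 CPM (median 10.9) over the 12 of OS-LM1. Every OS-LM1 library was above every 786-M1A library, and the difference was 6.25 ± 0.22 (SE, adjusted p = 8.79e-20) on the log2 scale. In 786-M1A with shPAX8-1 HOXA7 had 3 reads in 4 libraries and none in 3 of them, and the ratio of summed counts, OS-LM1 over 786-M1A, was 253 with a 95% counting interval from 86.4 to 1230. Without 786-M1A shPAX8-1 replicate 2, which held those 3 reads, the fitted difference over constructs was 7.28. With sgNTC18 the ratio of summed counts was 13.7 (10.8 to 17.8), and the 786-M1A libraries held 8 to 31 reads each. HOXC11, of the group that the metanephros needs, was at 0 to 0.27 CPM (median 0.128) in 786-M1A and at 2.39 to 8.8 CPM (median 5.96) in OS-LM1, again without overlap. The fitted difference was 5.26 ± 0.21 (SE, adjusted p = 1.08e-18), and the ratio of summed counts was 18.4 (11 to 33.2) with sgNTC18, 64.3 (31.0 to 161) with shPAX8-1 and 56.8 (29.8 to 125) with shPAX8-2. HOXC10, its neighbour, was at 5.09 to 17.7 CPM (median 8.46) in 786-M1A and 24.9 to 49.9 CPM (median 32) in OS-LM1. No library overlapped, and the difference was 1.92 ± 0.08 (SE, adjusted p = 1.07e-18). HOXB7 was at 5.66 to 16.8 CPM (median 7.43) in 786-M1A and 16.5 to 28.2 CPM (median 20.4) in OS-LM1. The highest 786-M1A library, 1 of its sgNTC18 libraries, was above the lowest OS-LM1 library, and the difference was 1.22 ± 0.07 (SE, adjusted p = 1.66e-14) over constructs but 0.27 ± 0.12 (SE, adjusted p = 0.0512) with sgNTC18.

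HOXD1, HOXB9, HOXB8, HOXD10, HOXD3 and HOXB3 were lower in OS-LM1. HOXD1, the headmost gene of its cluster, was at 6.03 to 9.77 CPM (median 8.3) in 786-M1A and 0.192 to 0.777 CPM (median 0.357) in OS-LM1. The ranges were far apart with every construct, and the difference was -4.30 ± 0.15 (SE, adjusted p = 7e-20), with -4.34 for sgNTC18, -3.95 for shPAX8-1 and -4.61 for shPAX8-2. HOXB9 was at 45.4 to 173 CPM (median 91.3) in 786-M1A and 2.73 to 19 CPM (median 3.75) in OS-LM1. The difference, -3.83 ± 0.08 (SE, adjusted p = 1.36e-24) over constructs, was -1.47 with sgNTC18 and -5.32 with shPAX8-1. HOXB8, the next gene along, was at 11.9 to 15.3 CPM (median 13.6) and 1.26 to 6.76 CPM (median 3.38), with no overlap and a difference of -2.18 ± 0.08 (SE, adjusted p = 1.98e-19). HOXB3 was at 21.7 to 40.0 CPM (median 32.1) and 9.75 to 19.4 CPM (median 14) and differed by -1.18 ± 0.08 (SE, adjusted p = 4.97e-14). HOXD10 was at 20.9 to 87.1 CPM (median 35.5) and 1.25 to 29.5 CPM (median 19.9), ranges that overlapped although the lines did not overlap under any single construct. Its difference was -3.81 ± 0.17 (SE, adjusted p = 4.74e-17) with sgNTC18 and -0.81 ± 0.14 (SE, adjusted p = 7.86e-06) with shPAX8-1. HOXD3 was at 2.66 to 14.4 CPM (median 8.84) and 2.02 to 3.3 CPM (median 2.69), and its difference of -1.39 ± 0.09 (SE, adjusted p = 7.38e-14) over constructs came down to -0.41 ± 0.16 (SE, adjusted p = 0.0277) with sgNTC18. The latter was not called in 10 of 33 alternative settings, among them without 786-M1A sgNTC18 replicate 1 (adjusted p = 0.0623) or 4 (0.0722) and without OS-LM1 sgNTC18 replicate 1 (0.0624) or 3 (0.0820).

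**Figure D3:**
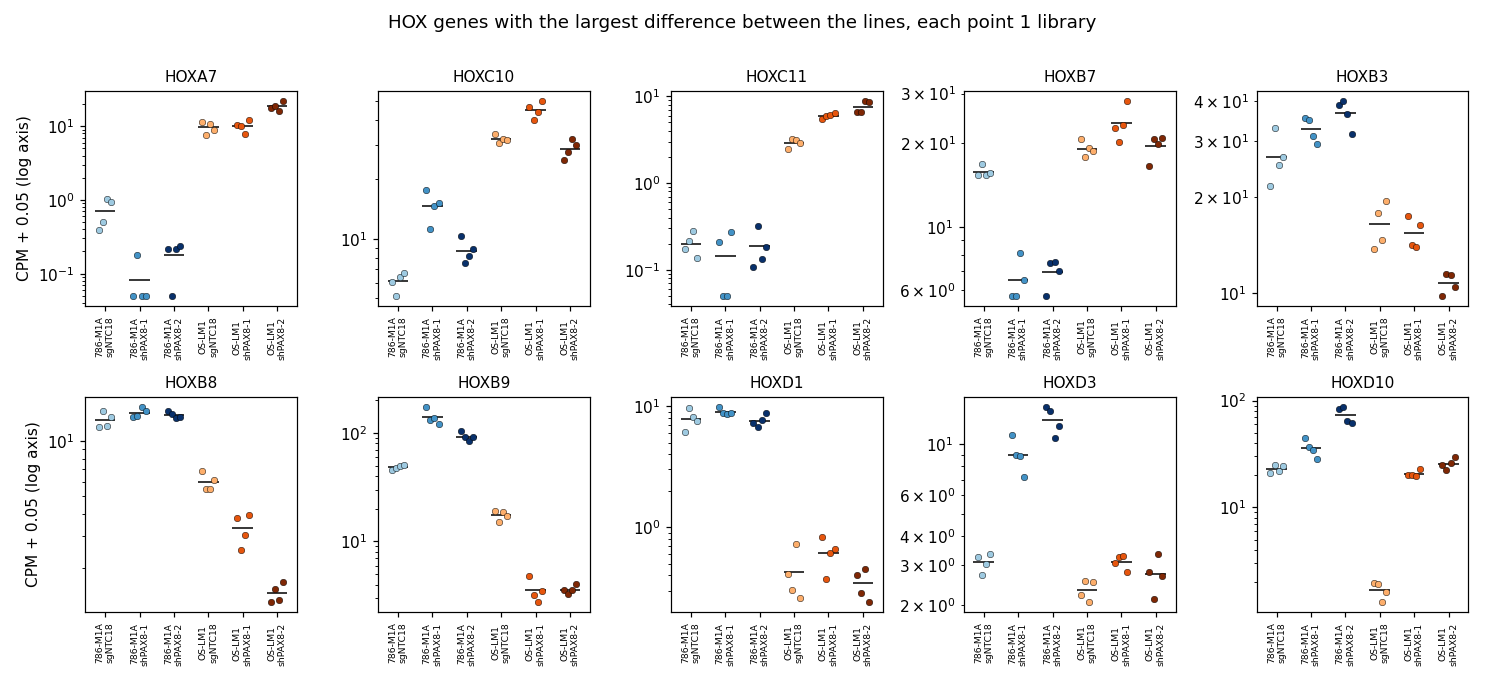
CPM + 0.05 on a log axis of the 10 HOX genes that differed most between the lines, with 1 point a library and a bar at the mean of the 4 libraries of each group. HOXA7, HOXC10 and HOXC11 are higher in every OS-LM1 library, HOXB3, HOXB8, HOXB9 and HOXD1 are lower in every OS-LM1 library, and HOXB7, HOXD3 and HOXD10 overlap.

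In 786-M1A, 30 HOX genes could be tested, since HOXA6, HOXA7 and HOXC11 fell under the filter beside the other 6. With shPAX8-1, 11 were higher and 10 lower than with sgNTC18 (background 36.1% and 34.5% of 14452 genes), and with shPAX8-2 10 were higher and 11 lower (31.5% and 30.9%). The medians were -0.11 and 0.07 for the HOX genes and 0.03 and 0.02 for all genes. Both constructs share the 4 sgNTC18 libraries. Against them, 9 HOX genes were higher with both, 10 lower with both and 0 opposite, where 25.1% and 25.0% of all genes tested were higher or lower with both. The shPAX8-1 difference fell with GC content over all genes (rho = -0.363), and with the GC trend removed 14 were higher and 8 lower. Without 786-M1A shPAX8-1 replicates 1 and 2, 9 were higher and 15 lower with shPAX8-1, and without replicates 3 and 4, 11 and 10.

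HOXC4 fell most with each construct. HOXC4 was at 10.3, 13.2, 11.7 and 14.7 CPM with sgNTC18, 1.52, 2.18, 1.69 and 1.05 with shPAX8-1 and 3.13, 2.89, 2.74 and 1.6 with shPAX8-2. Every shPAX8 library was under every sgNTC18 library, and the differences were -2.92 ± 0.23 (SE, adjusted p = 3.22e-08) for shPAX8-1 and -2.24 ± 0.22 (SE, adjusted p = 6.34e-07) for shPAX8-2. HOXC5 was at 2.32, 2.84, 2.93 and 1.72 CPM with sgNTC18, 0.776, 0.689, 0.628 and 0.226 with shPAX8-1 and 0.626, 0.776, 0.249 and 1.07 with shPAX8-2. Every shPAX8 library was again under every sgNTC18 library, at levels under 3 CPM, while the shPAX8 groups overlapped each other. The differences were -2.04 ± 0.37 (SE, adjusted p = 0.000146) and -1.80 ± 0.37 (SE, adjusted p = 0.000585). HOXC4, HOXC5 and HOXC6 share an annotated start, and HOXC6, at 11.6 ± 0.792, 9.87 ± 0.721 and 8.37 ± 0.0862 CPM (SD, n = 4) in the same order, differed by -0.20 ± 0.11 (SE, adjusted p = 0.114) and -0.44 ± 0.11 (SE, adjusted p = 0.00312).

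The headward HOXA genes fell as a neighbouring run. HOXA2, which patterns the hindbrain and the arches below it, was at 13.8, 14.9, 14.6 and 15.1 CPM with sgNTC18, 3.56, 3.53, 2.65 and 3.87 with shPAX8-1 and 6.14, 5.34, 7.29 and 6.6 with shPAX8-2. The 3 groups did not overlap, with the shPAX8-1 libraries lowest, and the differences were -2.08 ± 0.15 (SE, adjusted p = 9.48e-09) and -1.19 ± 0.14 (SE, adjusted p = 3.49e-06). HOXA3, a paralogue of pharyngeal development, was at 69.2, 80.2, 82.2 and 79.8 CPM with sgNTC18, 26.4, 26.2, 22.2 and 23.3 with shPAX8-1 and 41.9, 43.4, 38.3 and 42.8 with shPAX8-2. Again the groups did not overlap, and the differences were -1.64 ± 0.10 (SE, adjusted p = 3.26e-09) and -0.88 ± 0.10 (SE, adjusted p = 2.64e-06). HOXA4 fell by 1.16 and 0.33 and HOXA10 by 1.24 and 0.79 on the log2 scale, whereas HOXA5 between them rose by 0.67 and 0.51. HOXA9 rose with shPAX8-1, by 0.73 ± 0.10 (SE, adjusted p = 1.15e-05), and differed by 0.21 ± 0.10 (SE, adjusted p = 0.0811) with shPAX8-2.

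HOXB7 and HOXB9 moved in opposite directions within one cluster. HOXB7 was at 15.4, 16.8, 15.4 and 15.6 CPM with sgNTC18, 5.66, 5.67, 8.09 and 6.45 with shPAX8-1 and 5.66, 7.41, 7.46 and 6.93 with shPAX8-2. All shPAX8 libraries were below all sgNTC18 libraries, and the differences were -1.27 ± 0.14 (SE, adjusted p = 1.23e-06) and -1.18 ± 0.14 (SE, adjusted p = 4.4e-06). HOXB9 was at 45.4, 47.7, 49.7 and 50.6 CPM with sgNTC18, 173, 132, 137 and 119 with shPAX8-1 and 103, 91.1, 83.2 and 91.5 with shPAX8-2. The 3 groups did not overlap, and the differences were 1.56 ± 0.12 (SE, adjusted p = 1.94e-08) and 0.95 ± 0.12 (SE, adjusted p = 4.88e-06). HOXB8, which lies between them, was not called, at 0.15 ± 0.11 (SE, adjusted p = 0.221) and 0.12 ± 0.11 (SE, adjusted p = 0.371). HOXB4 was at 9.2, 12.1, 10.9 and 10.5 CPM with sgNTC18, 27.8, 25.1, 21 and 17.2 with shPAX8-1 and 27.6, 28.4, 24.3 and 24 with shPAX8-2. No shPAX8 library was as low as any sgNTC18 library, and the differences were 1.12 ± 0.15 (SE, adjusted p = 8.16e-06) and 1.31 ± 0.15 (SE, adjusted p = 2.68e-06). HOXB6 and HOXB2 fell with both constructs (by 1.06 and 0.86, and by 0.35 and 0.72).

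In HOXD, HOXD3 rose most. HOXD3 was at 3.19, 2.66, 2.97 and 3.31 CPM with sgNTC18, 10.9, 8.87, 8.82 and 7.15 with shPAX8-1 and 14.4, 13.9, 10.5 and 11.9 with shPAX8-2. The groups did not overlap save for the highest shPAX8-1 library, which was above the lowest shPAX8-2 library, and the differences were 1.57 ± 0.16 (SE, adjusted p = 5.25e-07) and 2.09 ± 0.16 (SE, adjusted p = 5.54e-08). HOXD8 rose by 0.65 and 0.68, and HOXD10 by 0.66 and 1.70. HOXD11, HOXD9, HOXD4 and HOXD1 were not called in 1 direction with both constructs, and HOXC10, HOXC9 and HOXB3 rose with both by 1.30 and 0.54, 0.54 and 0.79, and 0.32 and 0.49. HOXA11, of the metanephric group, fell by 0.45 with shPAX8-1 and 0.45 with shPAX8-2.

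In OS-LM1, 33 HOX genes could be tested. With shPAX8-1, 13 were higher and 6 lower than with sgNTC18 (background 35.6% and 35.8% of 15049 genes), and with shPAX8-2 12 were higher and 11 lower (34.3% and 34.1%). The medians were 0.19 and -0.01 for the HOX genes and -0.01 for all genes with each construct. Against the shared sgNTC18 libraries, 10 were higher with both constructs, 6 lower with both and 0 opposite, where 29.2% and 29.2% of all genes tested were higher or lower with both. The differences fell with GC content over all genes (rho = -0.321 for shPAX8-1 and -0.275 for shPAX8-2), and with the GC trend removed 20 were higher and 4 lower with shPAX8-1.

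**Figure D4:**
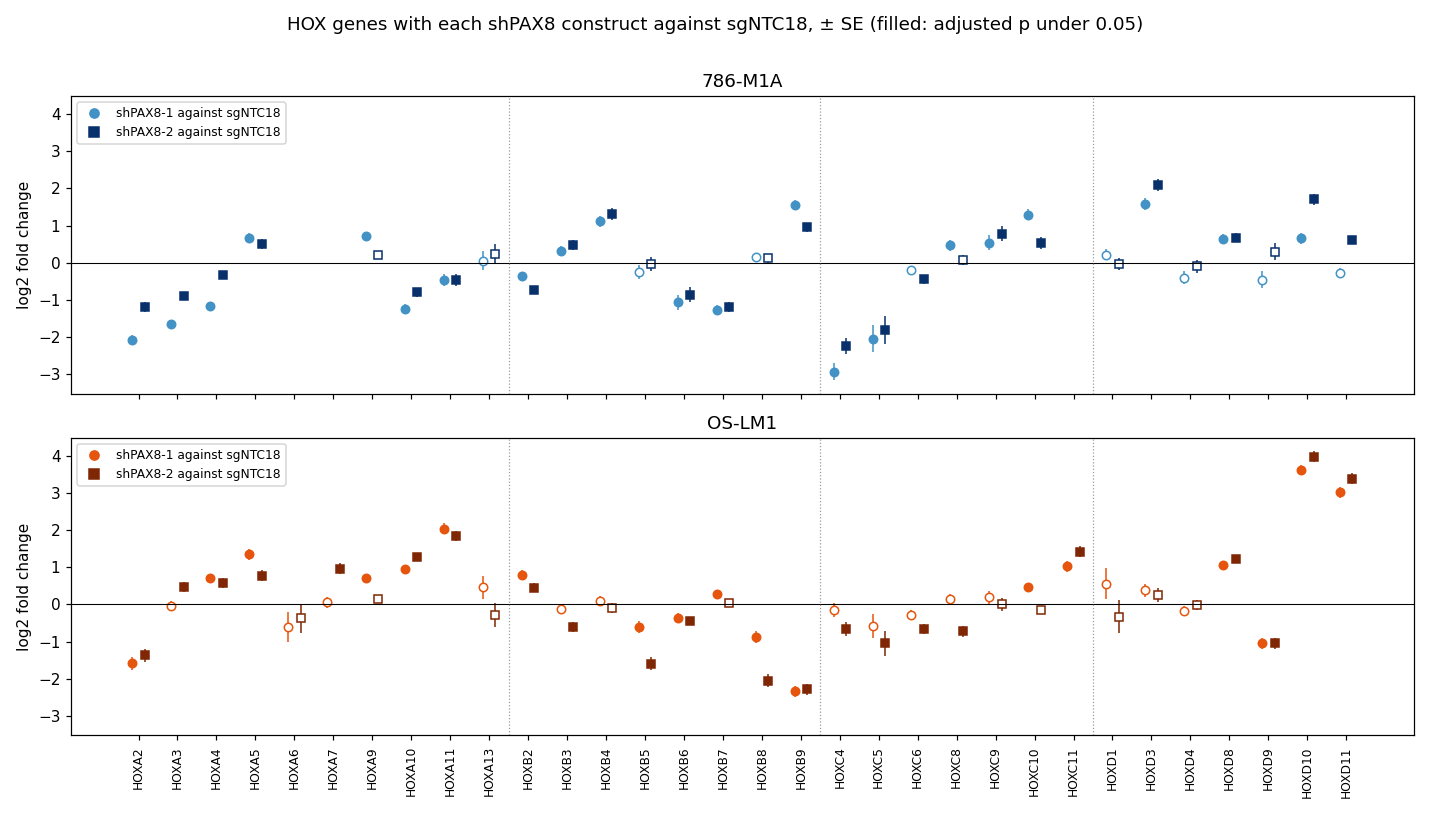
Log2 fold change of HOX genes with shPAX8-1 (circles) and shPAX8-2 (squares) against sgNTC18, with 786-M1A above and OS-LM1 below. Lines are ± SE, filled symbols passed an adjusted p of 0.05, and genes are in order of cluster and paralogue number. HOXD10 and HOXD11 stand highest in OS-LM1 and HOXC4 lowest in 786-M1A.

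HOXD10 and HOXD11, adjacent genes of the tailward part of HOXD that are known from the limb and the kidney, rose most. HOXD10 was at 1.89, 1.85, 1.25 and 1.57 CPM with sgNTC18, 19.9, 19.8, 19.5 and 22.6 with shPAX8-1 and 24.8, 22.2, 25.9 and 29.5 with shPAX8-2. The shPAX8 libraries all lay far above the sgNTC18 libraries, and the differences were 3.62 ± 0.14 (SE, adjusted p = 3.82e-14) for shPAX8-1 and 3.97 ± 0.14 (SE, adjusted p = 1.46e-14) for shPAX8-2. HOXD11 was at 4.59, 2.99, 4.51 and 3.92 CPM with sgNTC18, 33.1, 28.4, 32.6 and 37.7 with shPAX8-1 and 33.3, 40.0, 41.5 and 50.9 with shPAX8-2. It had the same pattern, with differences of 3.02 ± 0.15 (SE, adjusted p = 8.12e-13) and 3.38 ± 0.15 (SE, adjusted p = 2.5e-13). HOXD8 was at 14.7, 16.3, 17.7 and 16.7 CPM with sgNTC18, 38.1, 31.4, 34.9 and 35.1 with shPAX8-1 and 34.8, 41.4, 33.9 and 42.5 with shPAX8-2. All shPAX8 libraries were above all sgNTC18 libraries, and the differences were 1.07 ± 0.11 (SE, adjusted p = 2.47e-08) and 1.23 ± 0.11 (SE, adjusted p = 4.36e-09). HOXD9, which lies between HOXD8 and HOXD10, went the other way. HOXD9 was at 10.7, 8.58, 7.87 and 9.94 CPM with sgNTC18, 4.13, 5.29, 4.21 and 4.67 with shPAX8-1 and 4.2, 3.7, 5.22 and 4.61 with shPAX8-2. Its shPAX8 libraries were all below its sgNTC18 libraries, and the differences were -1.05 ± 0.15 (SE, adjusted p = 3.04e-06) and -1.04 ± 0.15 (SE, adjusted p = 3.42e-06). HOXD4, at 7.22 ± 0.304, 6.48 ± 0.315 and 7.08 ± 1.1 CPM (SD, n = 4), differed by -0.18 ± 0.13 (SE, adjusted p = 0.212) and -0.01 ± 0.13 (SE, adjusted p = 0.942), and HOXD3 and HOXD1 were not called either.

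**Figure D5:**
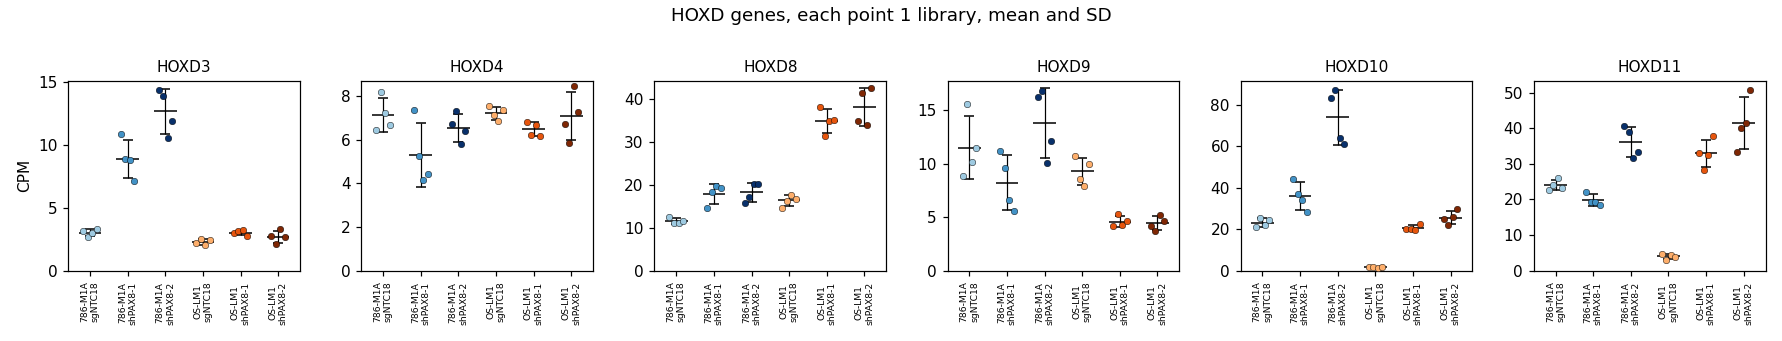
CPM of 6 HOXD genes, with 1 point a library and the mean ± SD of the 4 libraries of each group. HOXD8, HOXD10 and HOXD11 are higher and HOXD9 is lower in every shPAX8 library of OS-LM1 than in its sgNTC18 libraries, HOXD3 is higher in the shPAX8 libraries of 786-M1A, and HOXD4 stays between 4.15 and 8.47 CPM in all 24 libraries.

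HOXB9 fell most in OS-LM1. HOXB9 was at 19, 15.2, 18.5 and 17.1 CPM with sgNTC18, 4.76, 3.17, 2.73 and 3.45 with shPAX8-1 and 3.5, 3.23, 3.51 and 4.0 with shPAX8-2. No shPAX8 library came near the sgNTC18 libraries, and the differences were -2.34 ± 0.15 (SE, adjusted p = 5.48e-11) and -2.28 ± 0.15 (SE, adjusted p = 9.28e-11). HOXB8 fell with it, by 0.87 and 2.05, and HOXB5 by 0.60 and 1.60, whereas HOXB2 rose by 0.80 and 0.45. HOXA2 was at 5.55, 7.91, 5.84 and 5.97 CPM with sgNTC18, 2.48, 2.06, 2.13 and 1.94 with shPAX8-1 and 2.31, 1.97, 2.59 and 2.82 with shPAX8-2. Both shPAX8 groups lay below the sgNTC18 libraries and overlapped each other, and the differences were -1.59 ± 0.18 (SE, adjusted p = 1.23e-07) and -1.36 ± 0.17 (SE, adjusted p = 8.64e-07).

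Group 11 rose in all 3 clusters that have it. HOXA11 was at 3.04, 2.58, 2.45 and 3.22 CPM with sgNTC18, 10.2, 12.9, 11.8 and 12.3 with shPAX8-1 and 9.59, 8.12, 11.7 and 10.7 with shPAX8-2. Every shPAX8 library was above every sgNTC18 library, and the differences were 2.04 ± 0.14 (SE, adjusted p = 2.27e-10) and 1.84 ± 0.14 (SE, adjusted p = 1.24e-09). HOXC11 was at 2.39, 3.16, 3.09 and 2.86 CPM with sgNTC18, 5.44, 5.82, 6.1 and 6.45 with shPAX8-1 and 6.51, 6.51, 8.8 and 8.55 with shPAX8-2. It did not overlap with sgNTC18 either, and the differences were 1.02 ± 0.15 (SE, adjusted p = 6.33e-06) and 1.42 ± 0.15 (SE, adjusted p = 9.81e-08). HOXD11 rose by 3.02 and 3.38, as above. In 786-M1A, HOXC11 had 0 to 7 reads a library, HOXA11 fell and HOXD11 differed by -0.26 ± 0.12 (SE, adjusted p = 0.0532) with shPAX8-1 and 0.61 ± 0.11 (SE, adjusted p = 0.000278) with shPAX8-2. HOXA genes outside group 11 that rose with both constructs in OS-LM1 included HOXA4 (by 0.70 and 0.58), HOXA5 (1.35 and 0.77) and HOXA10 (0.96 and 1.28).

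Over the 33 genes, the shPAX8 effect (mean of both constructs against sgNTC18) was higher in OS-LM1 than in 786-M1A for 16 and lower for 9 by the interaction test (background 29.9% and 28.8%), with a median of 0.20 against 0.00 for all genes. Of the 30 HOX genes tested in both lines, 10 passed in all 4 comparisons of a construct with sgNTC18, a share of 33.3% that is near the 33.8% of all 13737 genes tested in both. The constructs of a line share their sgNTC18 libraries. Of the 10, HOXA5, HOXD8 and HOXD10 were higher in all 4 (background 12.5%), HOXA2 and HOXB6 were lower in all 4 (14.6%), and HOXA4, HOXA10, HOXA11, HOXB2 and HOXB9 differed in direction between the lines. HOXB9 rose in 786-M1A and fell in OS-LM1, and the difference between these effects was -3.53 ± 0.16 (SE, adjusted p = 5.99e-16). For HOXD11 it was 3.05 ± 0.17 (SE, adjusted p = 3.94e-14) and for HOXD10 2.64 ± 0.19 (SE, adjusted p = 5.35e-12), with HOXD10 at 20.9, 25.2, 21.8 and 24.5 CPM with sgNTC18, 44.3, 37, 34.1 and 28.3 with shPAX8-1 and 83.3, 87.1, 63.9 and 61.2 with shPAX8-2 in 786-M1A. HOXD11 was at 22.7, 24.1, 26.1 and 23.4 CPM with sgNTC18, 22.2, 19.3, 19.3 and 18.4 with shPAX8-1 and 40.7, 38.9, 31.7 and 33.4 with shPAX8-2 there. These 786-M1A libraries were all above 18 CPM, while the sgNTC18 libraries of OS-LM1 were all under 5 CPM for both genes. For HOXA7 the difference was 3.68 ± 0.52 (SE, adjusted p = 1.26e-06), which rests on 67 reads with sgNTC18, 3 with shPAX8-1 and 8 with shPAX8-2 in 786-M1A, and it was 5.24 without 786-M1A shPAX8-1 replicate 2, the only shPAX8-1 library of that line with a HOXA7 read. HOXA7 was at 11.3, 7.43, 10.6 and 8.86 CPM with sgNTC18, 10.3, 10.1, 7.74 and 12.3 with shPAX8-1 and 17.6, 18.8, 16 and 21.9 with shPAX8-2 in OS-LM1. Its groups with sgNTC18 and shPAX8-1 overlapped, and those with shPAX8-2 were above both. HOXA7 entered the interaction test, too, only through its OS-LM1 counts.

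The 2 constructs against PAX8 were compared with each other within each line. In 786-M1A, where PAX8 was lower with shPAX8-1 than with shPAX8-2 by 1.18 ± 0.15 (SE, adjusted p = 4.01e-05) on the log2 scale, 5 HOX genes were higher with shPAX8-1 and 9 lower (background 24.2% and 22.9%), with medians of -0.19 for the HOX genes and -0.02 for all genes. This comparison fell most steeply with GC content over all genes (rho = -0.557), and with the GC trend removed 9 were higher and 6 lower. Without 786-M1A shPAX8-1 replicates 1 and 2, 5 were higher and 13 lower, and without replicates 3 and 4, 4 and 6. The largest differences, all lower with shPAX8-1, were in HOXD10 at -1.04 ± 0.15 (SE, adjusted p = 0.000123), HOXA2 at -0.89 ± 0.15 (SE, adjusted p = 0.000377), HOXD11 at -0.87 ± 0.12 (SE, adjusted p = 5.78e-05) and HOXA4 at -0.83 ± 0.12 (SE, adjusted p = 9.03e-05). The libraries of the 2 constructs did not overlap for any of the 4. HOXA4 was at 9.23, 9.31, 10.3 and 9.62 CPM with shPAX8-1 and at 15.8, 17.3, 17.6 and 17.7 with shPAX8-2. In OS-LM1, where PAX8 differed by -0.05 ± 0.12 (SE, adjusted p = 0.797), 9 were higher with shPAX8-1 and 5 lower (background 12.4% and 16.7%), with medians of 0.20 and -0.03. Without OS-LM1 shPAX8-1 replicate 1, 9 rather than 14 genes passed, 7 higher and 2 lower, and with the GC trend removed 14 were higher and 2 lower.

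HOXB8, HOXB5, HOXA7 and HOXC8 differed most between the constructs in OS-LM1. HOXB8 was at 3.74, 2.49, 3.01 and 3.87 CPM with shPAX8-1 and at 1.26, 1.49, 1.29 and 1.63 with shPAX8-2. The groups did not overlap, and the difference was 1.18 ± 0.19 (SE, adjusted p = 0.000102). HOXB5 was at 4.71, 3.91, 3.41 and 3.56 CPM with shPAX8-1 and at 2.13, 1.47, 2.15 and 1.84 with shPAX8-2, without overlap, and differed by 0.99 ± 0.18 (SE, adjusted p = 0.000322). HOXC8 was at 10.0, 6.83, 8.91 and 10.2 CPM with shPAX8-1 and at 4.34, 4.72, 4.69 and 5.54 with shPAX8-2, without overlap, and differed by 0.87 ± 0.14 (SE, adjusted p = 0.000136). HOXA7 was lower with shPAX8-1, by 0.91 ± 0.15 (SE, adjusted p = 0.000141).

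The TALE partners of HOX proteins were looked at in the same comparisons. Of 9 TALE genes, 8 could be tested between the lines, and over the mean of constructs 4 were higher and 4 lower in OS-LM1, in a comparison that called 83.1% of all genes. PBX4 was at 9.17 CPM in 786-M1A and 0.00704 in OS-LM1 with sgNTC18. MEIS2 was at 12.8 and 13.6 CPM with sgNTC18 and rose with shPAX8 in OS-LM1 (1.47 and 1.12), while in 786-M1A it differed by -0.22 ± 0.13 (SE, adjusted p = 0.137) and -0.16 ± 0.13 (SE, adjusted p = 0.306). With shPAX8, 4 of 8 TALE genes tested rose with each construct in 786-M1A and 5 of 7 in OS-LM1, and 2 and 1 fell in 786-M1A and 1 in OS-LM1. Over all genes, 31.5 to 36.1% rose and 30.9 to 35.8% fell in these 4 comparisons.

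Of 32 chromatin regulators of the clusters, 13 rose and 5 fell with shPAX8-1 and 11 and 5 with shPAX8-2 in 786-M1A, and 8 and 16, and 12 and 14, in OS-LM1, beside the same 31.5 to 36.1% and 30.9 to 35.8% of all genes. EZH2, the Polycomb enzyme that methylates histone H3, fell in both lines, from 76.9 CPM with sgNTC18 to 25.3 and 25.5 in 786-M1A (-1.58 and -1.58) and from 71.8 to 18.2 and 21.7 in OS-LM1 (-2.0 and -1.73). KDM6B, which removes that methylation, rose in both, by 2.03 and 2.11 in 786-M1A and by 1.95 and 2.77 in OS-LM1. CBX2, a subunit of Polycomb complex 1, fell in OS-LM1 (-3.41 and -2.69) and differed by -0.47 ± 0.22 (SE, adjusted p = 0.0721) and -0.12 ± 0.22 (SE, adjusted p = 0.653) in 786-M1A. The part of these genes in the HOX results was not tested. Of 11 upstream regulators, most of them retinoid receptors and enzymes, CDX2 and CDX4, which switch on trunk and tail HOX genes in the embryo, were at 0 CPM in every group, and 5 could be tested in 786-M1A and 6 in OS-LM1. With shPAX8-1, 1 rose and 2 fell in 786-M1A and 4 rose and 1 fell in OS-LM1, and with shPAX8-2 2 and 1, and 3 and 1. The shares of all genes were again 31.5 to 36.1% higher and 30.9 to 35.8% lower.

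Genes just outside the clusters were looked at for the same lines. Of 23 flanking genes, 18 could be tested between the lines, and 13 were higher and 2 lower in OS-LM1 over the mean of constructs (41.7% and 41.3% of all genes), with a median of 0.53 (-0.01 for all genes). With sgNTC18 alone 7 were higher and 5 lower (32.0% and 31.0%). SKAP1, beside HOXB1, was at 11.4 ± 0.694 CPM in 786-M1A and 0.029 ± 0.0414 in OS-LM1 with sgNTC18. EVX1 and EVX2, the homeobox genes at the tailward ends of HOXA and HOXD, had means of at most 0.0191 CPM. Against sgNTC18, 5 of 18 flanking genes rose and 8 fell with shPAX8-1 in 786-M1A, 6 and 8 with shPAX8-2, and in OS-LM1 8 of 17 rose with each construct while 4 and 3 fell. Of all genes, 31.5 to 36.1% rose and 30.9 to 35.8% fell in these 4 comparisons. SMUG1, near HOXC4, fell in 786-M1A together with HOXC4 and HOXC5, from 14.4 to 2.56 and 4.62 CPM (-2.46 and -1.62), and in OS-LM1 it fell by 0.64 and 0.61.

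Of 17 non-coding or readthrough transcripts of the clusters, 14 could be tested between the lines, where 5 were higher and 4 lower in OS-LM1 over the mean of constructs (41.7% and 41.3% of all genes). HOTAIR, which lies antisense beside HOXC11, was at 0.00809 CPM in 786-M1A and 0.771 in OS-LM1 with sgNTC18, the direction of HOXC11. HOTAIRM1, a non-coding RNA of the HOXA cluster, differed by -2.70 ± 0.09 (SE, adjusted p = 4.46e-20) over the mean of constructs, lower in OS-LM1. HAGLR, which overlaps HOXD1 and HOXD3 on the other strand, was also lower in OS-LM1, by 1.06 ± 0.06 (SE, adjusted p = 3.64e-15). HOXD-AS2, antisense at HOXD8 and HOXD9, fell with shPAX8 in 786-M1A by 2.18 and 1.95. The readthrough HOXA10-HOXA9 was at 0.048 CPM with sgNTC18 in 786-M1A against 2.45 and 3.66 with shPAX8, and at 0.323 against 4.67 and 11.1 in OS-LM1, and it shares exons with HOXA9 and HOXA10. With shPAX8-1 and shPAX8-2, 4 and 5 of 12 such transcripts rose and 6 and 7 fell in 786-M1A, and 4 and 1 of 14 rose and 4 and 7 fell in OS-LM1. The background in these 4 comparisons was 31.5 to 36.1% of all genes higher and 30.9 to 35.8% lower.

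Neighbouring HOX genes can share reads, and their levels are uncertain to that extent. HOXA3, HOXA4, HOXA10, HOXB3, HOXB6 and HOXB7 had an expected count more than 0.005 from a whole number in 24 of 24 libraries, as happens when reads are split between overlapping genes. HOXC4 had such a count in 15 libraries, HOXC5 in 19, HOXA7 in 19, HOXD3 in 20 and HOXD1 in 12. The same held for HOXB5 in 22 libraries, HOXA9 in 18, HOXA5 in 16, HOXB4 in 15 and HOXC6 in 9. HOXD10 and HOXD11 overlap on the same strand, but HOXD8, HOXD10, HOXD11, HOXA2, HOXA11, HOXB8, HOXC10 and HOXC11 had none, and HOXB9 had 9. Antisense genes overlap HOXA7, HOXA11, HOXC11, HOXD1, HOXD8 and HOXD9, among others, in the GENCODE v44 annotation, and whether the counting used the strand is not given in the sources used here.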

How the data were processed

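RNA was measured by sequencing in 24 libraries. Per the labels and the study's methods, the authors aligned reads to hg38 with Bowtie2 and quantified them with RSEM, and the versions, the annotation release and the strand setting are not given in the sources used here. A KAPA stranded mRNA kit is named in the labels and Lexogen kits in the methods. The deposited tables hold expected counts, TPM and an effective length, equal to the length, for 26475 genes in each library, with replicates not pooled. Expected counts were rounded, filtered (filterByExpr, minimum count 10), scaled by TMM and tested with edgeR 4.0.16 (robust quasi-likelihood, R 4.3.3), with Benjamini-Hochberg adjustment over all genes tested. Contrasts between lines and their interaction used all 24 libraries, and contrasts between constructs the 12 of each line. SEs are the absolute log2 fold change divided by the square root of F. CPM use the TMM scale of all 24 libraries, and the authors' TPM served as an alternative for levels.

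Alternatives were DESeq2 1.42.0, its size factors, no count filter, stricter thresholds (adjusted p 0.01, absolute log2 fold change 0.58), the libraries in the fit, leaving out each library, the replicate number as a block and removal of each library's GC trend (spline with 5 df, on the 89.9 to 90.3% of genes with a GC value). The removal of the paired 786-M1A shPAX8-1 libraries from the line and interaction contrasts, and the block in the 8 shPAX8 libraries of 786-M1A, were added after seeing the data. Same-numbered shPAX8-1 and shPAX8-2 libraries of 786-M1A deviated together on average (correlations 0.109 to 0.729 over 9719 genes, mean 0.434). In the other pairs of groups the mean correlation was -0.181 to 0.0235, with single values from -0.733 to 0.603. No 2 replicates agreed within sampling noise (chi-square per gene 3.92 to 98.4). The scripts were tested on simulated data.

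The HOX genes and all lists were chosen with earlier results of these data known. Genes given in full were the 10 that differed most between the lines, up to 8 a line called in the same direction with both constructs, up to 4 a line called between constructs, the highest per kb in each cluster and line, and up to 4 called in the interaction. Some genes are counted but not reported here by name.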

Additional observations from a re-analysis of the deposited data

Results flagged for a closer look

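In 3 groups of 4 libraries, 1 library lay far from the other 3 for 1 HOX gene. HOXB7 was at 16.8 CPM in 786-M1A sgNTC18 replicate 2 and at 15.4 to 15.6 CPM in the others. HOXC8 was at 7.35 CPM in 786-M1A shPAX8-1 replicate 4 and at 6.74 to 6.80 CPM in the others. HOXD10 was at 22.6 CPM in OS-LM1 shPAX8-1 replicate 4 and at 19.5 to 19.9 CPM in the others. Over the 127 groups checked, chance alone would give about 6.35 such cases.

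The effect of the shPAX8 constructs differed between the lines, by the interaction test, for HOXA7 (3.68 in log2 units, positive where the effect was higher in OS-LM1, with 67, 3 and 8 reads in the 3 groups of 786-M1A), HOXB9 (-3.53), HOXD11 (3.05) and HOXD10 (2.64).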

How the results depend on the processing

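Settings were compared by the total of HOX genes called. A change in the split between higher and lower, as given above with the GC trend removed, did not register. Where 24 of 33 genes were called, as over the mean of constructs, a rise beyond 1.5 times could not occur. Most of the fits left out 1 library. The total stayed within 1.5 times the reported total in 297 of 301 fits with another setting. The exceptions were comparisons of shPAX8-1 with shPAX8-2, where 14 genes passed in each line. With an absolute log2 fold change over 0.58, 9 passed in 786-M1A and 5 in OS-LM1, and with an adjusted p under 0.01, 9 passed in OS-LM1, as stricter limits must give fewer. Leaving out 1 library at a time gave 9 to 15 genes there, with 9 without OS-LM1 shPAX8-1 replicate 1, for which the cause was not tested. With the replicate block, 24 genes passed between the lines over the mean of constructs, 25 with sgNTC18, 25 with shPAX8-1, 21 with shPAX8-2 and 25 in the interaction. Within lines the replicate block gave 23, 21 and 14 genes in 786-M1A (shPAX8-1, shPAX8-2, and 1 construct against the other, with 13 in the 8 shPAX8 libraries alone) and 18, 23 and 11 in OS-LM1. The genes of the 84 named differences were picked from these same data as the largest or as already called. Much of the agreement below was therefore built in. Where an alternative gave no adjusted p, only the direction was compared. Of 2358 alternative values for these 84 differences, in 2334 the direction and the call were those reported and none reversed. The block alone changed none of these calls. The other 24 were the difference between the lines with sgNTC18 in HOXD3 (10 no longer called, adjusted p from 0.0225 to 0.476 over its 33 alternatives, and -0.13 with the GC trend removed) and HOXB7 (14 newly called, adjusted p from 0.0141 to 0.0499). The gene with the highest level per kb in each cluster and line, averaged over the 3 constructs, was the same by the authors' TPM in 8 of 8 cases. Both measures divide the same expected counts by the same lengths, so the order within a library is the same. That agreement was therefore close to fixed in advance and is no separate check. Depth limits HOXB1, HOXB13, HOXC12, HOXC13, HOXD12 and HOXD13 throughout and HOXA6, HOXA7 and HOXC11 in 786-M1A, where differences were not detectable or rest on few reads.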
